A study of Mus musculus with 14 samples.

Results

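This account covers 10 mouse genes of epithelial antimicrobial defence, picked by symbol from the 55487 genes of the deposited count table. They are Reg3b, Reg3g, Retnlb, Lypd8, Duox2, Duoxa2, Nos2, Lcn2, Saa1 and Pigr, and all 10 were found. The study sequenced RNA of sorted colon cells in 14 libraries. Cre epithelial libraries (4) came from CD44-high EpCAM+ CD45- cells of Tsc2fl/fl Lyz2cre/+ mice, numbered 5, 8, 9 and 10, where mouse 5 was female and the others male. Wt epithelial libraries (4) came from the same gate in Tsc2fl/fl Lyz2+/+ mice, numbered 2, 4, 6 and 7, where mice 2 and 4 were female. Lamina propria macrophages, sorted as CD45+ CD11b+ CD64+ MHCII+ cells, gave 3 cre libraries (8, 9 and 10, all male) and 3 wt libraries (2, 4 and 6).

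All mice carried floxed alleles of Tsc2, whose product tuberin is a brake on the growth kinase mTORC1. Cre was expressed from Lyz2, a gene of the myeloid lineage. By this design the deletion was aimed at macrophages and other myeloid cells, not at the epithelial cells measured here. No group carried Cre without floxed Tsc2, so the recombinase allele and the deletion cannot be told apart. The titles give 4 mouse numbers for wt epithelium, whereas the series text counts 3 Tsc2fl/fl mice. Should the text hold, a pair of those wt libraries may come from 1 animal, which would make the p-values too small. The comparison of cre with wt epithelium asks what accompanies loss of Tsc2 in neighbouring myeloid cells.

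The colonic epithelium keeps bacteria at a distance with secreted lectins, peptides and enzymes, and carries antibody into the lumen. Many of these genes are induced by cytokines such as IL-22, which act through the transcription factor STAT3, and by microbial contact. The REG3 proteins are secreted C-type lectins, of which Reg3g is best known for killing Gram-positive bacteria. Retnlb is a goblet cell protein that acts on bacterial membranes, and Lypd8 binds flagella and hinders bacteria from entering the inner mucus layer. DUOX2 makes hydrogen peroxide at the cell surface and needs the maturation factor DUOXA2, while NOS2 makes nitric oxide. Lcn2 captures bacterial siderophores, Saa1 is an acute phase retinol and lipid carrier, and Pigr moves dimeric IgA across the epithelium.

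Reg3b and Reg3g lie 92802 bases apart on chromosome 6, and their promoters are shown because the pair is similar in sequence while only Reg3g passed the comparison of genotypes; the difference between the pair was not tested. Each stretch runs from 250 bases before to 50 bases after the RefSeq start, taken from RefSeq on GRCm38.p6. Reg3g is at chr6:78468825-78469124 on the minus strand and Reg3b at chr6:78370635-78370934 on the plus strand. Capitals mark a run of 29 bases that is identical in both, from position -20 to 8 relative to the start.
Reg3g: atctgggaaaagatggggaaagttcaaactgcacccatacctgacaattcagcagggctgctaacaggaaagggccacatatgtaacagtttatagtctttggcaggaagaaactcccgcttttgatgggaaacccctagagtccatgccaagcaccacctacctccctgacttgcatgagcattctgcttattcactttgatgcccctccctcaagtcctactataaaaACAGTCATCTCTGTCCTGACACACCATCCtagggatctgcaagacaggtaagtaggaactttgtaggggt
Reg3b: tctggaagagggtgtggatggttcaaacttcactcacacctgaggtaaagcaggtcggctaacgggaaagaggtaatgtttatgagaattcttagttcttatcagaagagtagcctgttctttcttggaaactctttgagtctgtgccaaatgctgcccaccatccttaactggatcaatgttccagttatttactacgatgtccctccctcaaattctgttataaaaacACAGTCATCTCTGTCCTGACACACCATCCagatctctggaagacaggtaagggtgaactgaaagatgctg

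Aligned end to end, the Reg3g and Reg3b promoters were identical at 207 of 304 positions, or 68.1%. Of the 10 genes, 8 had a promoter in the RefSeq table, and among the other 27 pairs the median identity was 47.3% and the highest 51.1%. The TATA box letters TATAAA were searched on both strands and were present in 14.2% of all 27025 promoters. They lay at -27 to -22 in Reg3g, at -29 to -24 in Reg3b and at -30 to -25 in Duoxa2. Reg3g held a further match on the opposite strand, at -161 to -156. The letters TTCNNNGAA, the core bound by STAT factors, read the same on both strands and were present in 8.47% of all promoters. They lay at -129 to -121 in Reg3b and at 39 to 47 in Pigr, and had no match in the Reg3g window. The RefSeq starts of Duox2 and Duoxa2 are 673 bases apart on chromosome 2 and the genes run in opposite directions.

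The libraries held between 7269103 and 9364551 counts each. Epithelial libraries had all 10 epithelium markers higher than macrophage libraries, and all 18 macrophage markers were lower. The ribosomal RNA share of counts was 13.3 ± 9.05% in cre and 23.4 ± 5.87% in wt epithelial libraries (SD, n = 4 each; exact permutation p = 0.114, two-sided), with cre 8 at 26.7% and wt 6 at 31.8%. Mitochondrial genes took 10.5 ± 0.133% in cre and 15.5 ± 2.96% in wt, without overlap (exact permutation p = 0.0286, the smallest that 4 against 4 allows; 0.0800 adjusted over 14 measures). The summed level of 18 macrophage markers ranged from 132 to 274 CPM (counts scaled to library size) in cre and from 197 to 485 CPM in wt epithelium. The 10 epithelium markers summed to 9886 ± 914 CPM in cre and 7579 ± 745 CPM in wt, and the 12 crypt stem cell markers to 343 ± 16.5 CPM in cre and 448 ± 56.8 CPM in wt. Tuft cell markers summed to 13.2 ± 3.60 CPM in cre and 26.1 ± 5.46 CPM in wt, and T cell and ILC markers to 28.2 ± 2.47 CPM in cre and 42.3 ± 9.17 CPM in wt (SD, n = 4 each). None of these 4 sums overlapped between genotypes (exact permutation p = 0.0286 each, two-sided, and 0.0800 adjusted over the 14 measures). The 10 epithelium markers did not move together. In edgeR 2 passed as higher in cre, Krt8 (log2 change 0.62) and Krt18 (0.42), and 1 as lower, Cdh1 (-0.36). Over all genes 5.64% passed as higher and 3.53% as lower. Krt8, the most abundant, stood at 3901 ± 261 CPM in cre and 2522 ± 255 CPM in wt. Epcam, also a gene of the sort, had -0.30 and did not pass. Cd44, the gene of the sorting marker, stood at 67.0 ± 7.73 CPM in cre and 122 ± 12.9 CPM in wt (SD, n = 4 each), with a log2 change of -0.87 (adjusted p = 0.00648 in edgeR). Cd44 is also among the 12 crypt stem cell markers, so its lower level in cre is part of their lower sum. Of the 11 crypt stem cell markers tested, 2 passed as lower in cre, Cd44 among them, and 0 as higher. Ephb3, of the same list, stood at 68.5 ± 6.61 CPM in cre and 64.4 ± 13.1 CPM in wt.

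Between genotypes in the epithelium, 1 of the 10 defence genes passed the test. Reg3g, the bactericidal lectin, was 1.70-fold higher in cre than in wt epithelial cells. The other 7 genes that could be tested did not pass, and their log2 changes ranged from -0.73 for Saa1 to 0.25 for Reg3b. Nos2 and Lcn2 had too few counts to be tested. Over all 13553 genes tested, 9.17% passed, with 5.64% higher and 3.53% lower in cre. The median log2 change was 0.04 over the 8 tested defence genes and -0.05 over all tested genes. The share of 1 in 8 is close to that background. Over all genes 765 passed as higher and 478 as lower in cre, and the split was 1142 and 246 with limma on log2(FPKM + 1), where the median of all genes moved to 0.06. It was 502 and 125 after removal of a GC content and length trend. In a bulk sample, more cells of a type and more RNA per cell cannot be told apart.

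**Figure D1:**
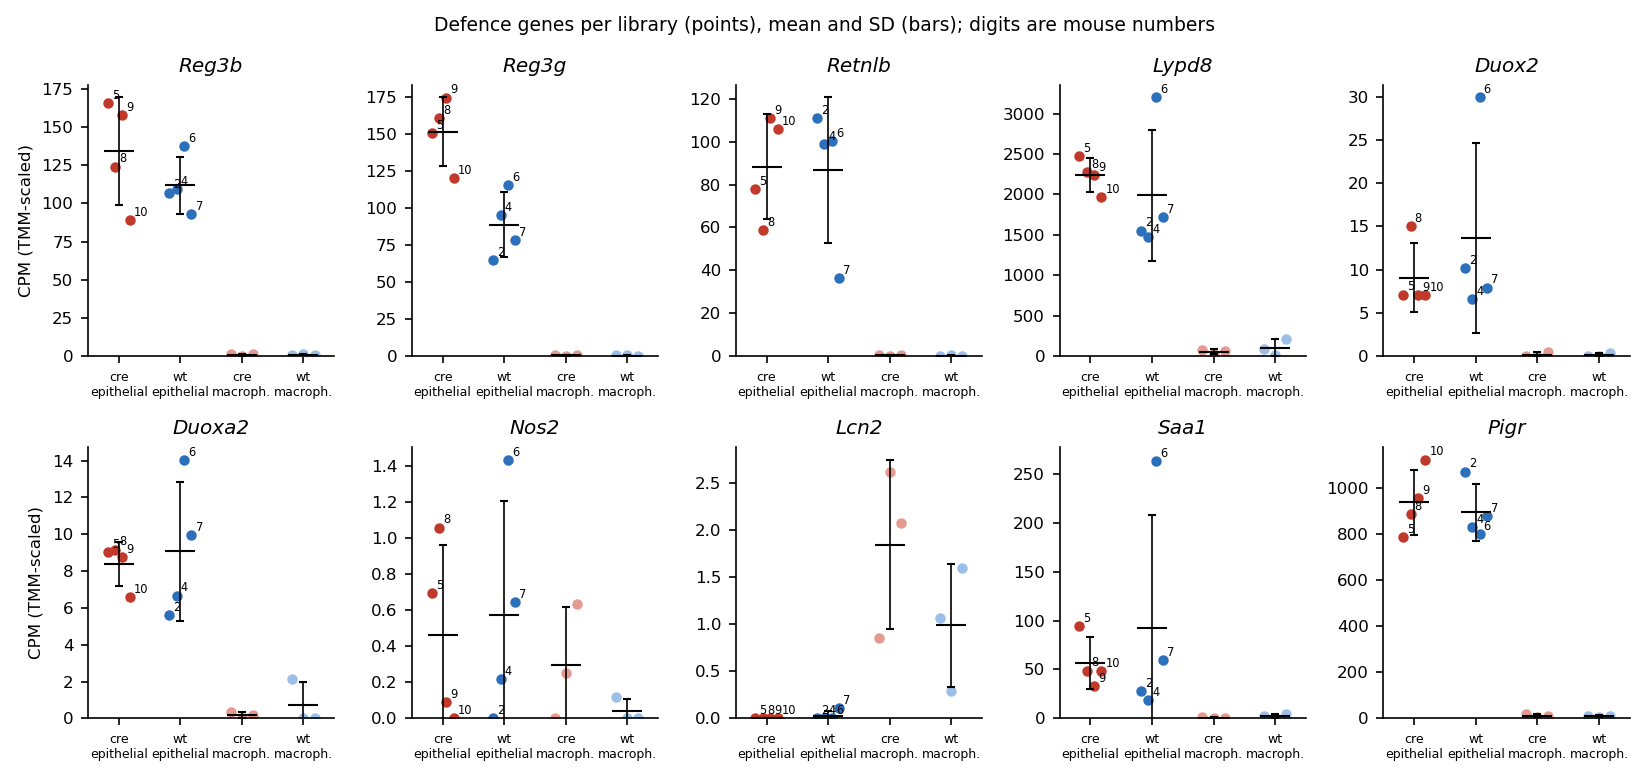
Level of each of the 10 genes in every library, in CPM on a linear axis from 0, with the mean and SD as black bars; cre and wt epithelial libraries are on the left of each panel and cre and wt macrophage libraries on the right. For Reg3g the 4 cre epithelial libraries (120 to 174 CPM) sit above the 4 wt ones (64.6 to 115 CPM), and wt 6 is the highest library for Lypd8, Duox2, Duoxa2 and Saa1.

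Reg3g (ENSMUSG00000030017, chromosome 6, 78466269 to 78468872, minus strand, GRCm38) stood at 150, 161, 174 and 120 CPM in cre epithelial libraries 5, 8, 9 and 10. In wt epithelial libraries 2, 4, 6 and 7 it stood at 64.6, 95.4, 115 and 78.5 CPM. The lowest cre library was above the highest wt library, which held for no other of the 10 genes. All 4 cre libraries were above all 4 wt libraries in 10.6% of the genes tested. The log2 change of Reg3g was 0.76 (SE 0.16, edgeR quasi-likelihood adjusted p = 0.0138). The mitochondrial share, the epithelium, crypt stem cell, tuft cell and T cell and ILC marker sums given above also separated the genotypes, and their part in the rise of Reg3g was not tested. Without cre 5 the log2 change was 0.77 (adjusted p = 0.0512) and without cre 9 it was 0.69 (adjusted p = 0.0618), both above the threshold of 0.05, so that either omission lost the call. Leaving out any of the other 6 libraries kept the call, with log2 changes of Reg3g from 0.64 to 0.92. In males alone, which are 3 cre and 2 wt libraries, the log2 change of Reg3g was 0.63 (edgeR adjusted p = 0.163). With the ribosomal RNA share in the model it was 0.88 (adjusted p = 0.178). With all 14 libraries in one fit it was 0.78 (adjusted p = 0.102).

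Reg3b (ENSMUSG00000071356, chromosome 6, 78370657 to 78373466, plus strand), the neighbouring lectin gene, stood at 166, 124, 158 and 89.2 CPM in cre libraries 5, 8, 9 and 10. It stood at 107, 109, 138 and 93.2 CPM in wt libraries 2, 4, 6 and 7. The groups overlapped, since cre 10 was the lowest of all 8 and wt 6 was above cre 8. The log2 change of Reg3b was 0.25 (SE 0.18, edgeR adjusted p = 0.383). In FPKM, which are scaled to gene length as well, the ratio of Reg3g to Reg3b was 0.921, 1.31, 1.12 and 1.37 in cre libraries 5, 8, 9 and 10. In wt libraries 2, 4, 6 and 7 this ratio was 0.613, 0.885, 0.850 and 0.856. The ratios did not overlap between genotypes, with cre 5 closest to the wt values, and no test was made of the ratio. Reg3g alone already separated the genotypes, so its ratio in part repeats that separation. How many other gene pairs separate in this way was not counted. The related gene Reg3a had 1, 1, 0 and 5 counts in cre libraries 5, 8, 9 and 10 and 0, 4, 11 and 4 counts in wt libraries 2, 4, 6 and 7. Reg3g itself had between 1313 and 1988 counts in cre and between 576 and 872 counts in wt libraries.

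Retnlb (ENSMUSG00000022650, chromosome 16, 48816856 to 48818892, plus strand), the goblet cell resistin-like protein, stood at 78.0, 58.98, 111 and 106 CPM in cre libraries 5, 8, 9 and 10. It stood at 111, 98.9, 100 and 36.4 CPM in wt libraries 2, 4, 6 and 7. The genotypes overlapped almost completely, and wt 7 was far below the other 3 wt libraries. The log2 change of Retnlb was 0.02 (SE 0.36, edgeR adjusted p = 0.979), and without wt 7 it was -0.24. The 12 goblet cell markers summed to 12646 ± 1028 CPM in cre and 10117 ± 2099 CPM in wt (SD, n = 4 each; exact permutation p = 0.0857, two-sided). Of the 12 markers 1 passed, as higher in cre, and 11 did not. Over all genes 9.17% passed, 5.64% as higher, so this share is close to the background. Agr2, a secretory protein isomerase, rose to 6863 ± 954 CPM in cre, against 4749 ± 592 CPM in wt (log2 change 0.52, edgeR adjusted p = 0.0168). The mucin gene Muc2 had a log2 change of -0.06, the mucus proteins Clca1 -0.75 and Fcgbp -0.47 and the trefoil factor Tff3 -0.10, none of which passed. These 4 negative values do not stand for the list, whose median log2 change over the 12 markers was 0.25. Spink4, among its most abundant genes, had 0.49 and did not pass either (edgeR adjusted p = 0.0551).

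Lypd8 (ENSMUSG00000013643, chromosome 11, 58379043 to 58390728, plus strand), the flagella-binding surface protein, stood at 2473, 2281, 2235 and 1963 CPM in cre libraries 5, 8, 9 and 10. It stood at 1553, 1474, 3199 and 1722 CPM in wt libraries 2, 4, 6 and 7. Wt 6 was the highest of all 8 libraries, and the other 3 wt libraries were below every cre library. The log2 change of Lypd8 was 0.16 (SE 0.24, edgeR adjusted p = 0.715) over all 8 libraries and 0.49 without wt 6 (adjusted p = 0.0104). Of the 8 fits that left out 1 library, Lypd8 passed in this 1 only, where 8.87% of 13783 genes passed. In males alone the log2 change of Lypd8 was -0.20. The 12 colonocyte markers also peaked in wt 6, where they summed to 5875 CPM, against 3353 to 3531 CPM in the other wt libraries and 3925 to 4888 CPM in cre. Its ribosomal RNA share was the highest as well, and the part of either in the Lypd8 values was not tested.

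Duox2 (ENSMUSG00000068452, chromosome 2, 122279247 to 122298449, minus strand), the peroxide-making oxidase, stood at 7.11, 15.04, 7.02 and 7.03 CPM in cre libraries 5, 8, 9 and 10. It stood at 10.2, 6.56, 29.9 and 7.93 CPM in wt libraries 2, 4, 6 and 7. The groups overlapped, and cre 8 and wt 6, the libraries with the most ribosomal RNA of each genotype, were the highest of each. Duoxa2 (ENSMUSG00000027225, chromosome 2, 122298900 to 122302885, plus strand), its maturation factor, stood at 9.02, 9.16, 8.77 and 6.58 CPM in the cre libraries in the same order. It stood at 5.61, 6.67, 14.03 and 9.96 CPM in the wt libraries, which enclosed all cre values. Log2 changes were -0.60 for Duox2 (SE 0.52, edgeR adjusted p = 0.491) and -0.12 for Duoxa2 (SE 0.26, adjusted p = 0.809). Without wt 6 both turned positive, to 0.11 for Duox2 and 0.17 for Duoxa2, and neither passed. Duoxa2 overlaps Duoxa1 on the opposite strand, and the libraries keep no strand. Duoxa1 had 8, 15, 9 and 8 counts in cre libraries 5, 8, 9 and 10 and 4, 8, 8 and 9 counts in wt libraries 2, 4, 6 and 7, against 72 to 104 counts of Duoxa2 in cre.

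Nos2 (ENSMUSG00000020826, chromosome 11, 78920787 to 78960254, plus strand), the inducible nitric oxide synthase, had 8, 9, 1 and 0 counts in cre libraries 5, 8, 9 and 10. It had 0, 2, 10 and 6 counts in wt libraries 2, 4, 6 and 7. Each genotype summed to 18 counts, with an exact ratio of cre to wt of 0.811 after scaling to library size (95% interval 0.398 to 1.65, counting error only). Lcn2 (ENSMUSG00000026822, chromosome 2, 32384633 to 32388252, minus strand), the siderophore-binding protein, had no count in any cre epithelial library and 1 count in wt 7. A sum of 0 counts allows up to 0.0708 CPM over the 4 cre libraries, on the basis of 3 counts. A difference between genotypes was not detectable for Nos2 and Lcn2 at this depth.

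Saa1 (ENSMUSG00000074115, chromosome 7, 46740497 to 46742980, minus strand), the acute phase protein, stood at 94.6, 48.8, 32.9 and 48.5 CPM in cre libraries 5, 8, 9 and 10. It stood at 27.8, 18.3, 263 and 59.8 CPM in wt libraries 2, 4, 6 and 7. Wt 6 was far above every other library, and the remaining wt values overlapped those of cre. Of the 8 tested genes, Saa1 had the largest SE. For Saa1 the log2 change came to -0.73 (SE 0.92, edgeR adjusted p = 0.658). Without wt 6 it turned to 0.66. The near copy Saa2 had 41, 25, 16 and 22 counts in cre libraries 5, 8, 9 and 10 and 13, 2, 90 and 21 counts in wt libraries 2, 4, 6 and 7. Saa2 was highest in the same library as Saa1, and whether the pair share reads was not tested.

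Pigr (ENSMUSG00000026417, chromosome 1, 130826684 to 130852249, plus strand), the antibody transporter, stood at 786, 887, 957 and 1124 CPM in cre libraries 5, 8, 9 and 10. It stood at 1073, 831, 799 and 878 CPM in wt libraries 2, 4, 6 and 7. The genotypes overlapped over most of their range, and no library stood apart. The log2 change of Pigr was 0.06 (SE 0.12, edgeR adjusted p = 0.793), the smallest SE among the 8 tested genes.

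**Figure D2:**
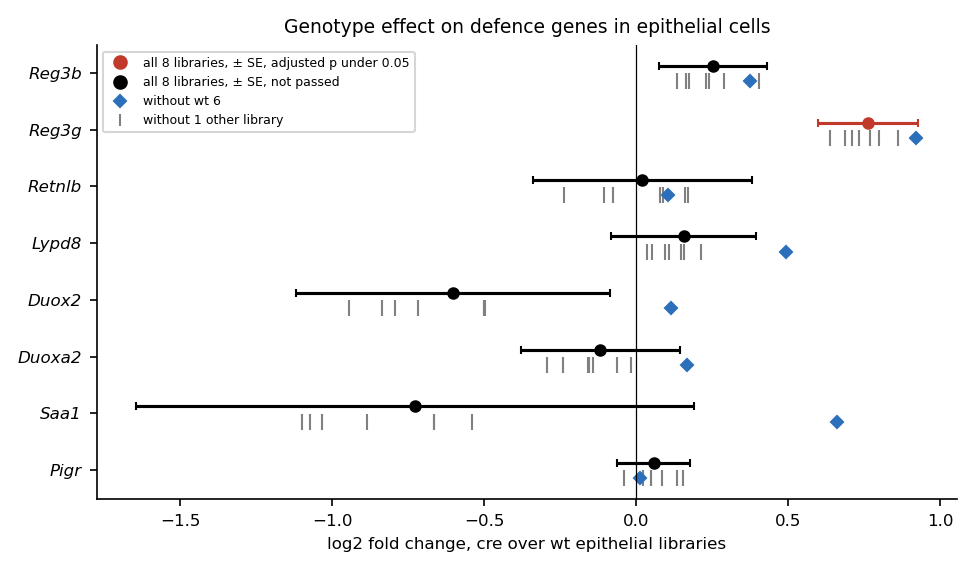
Log2 fold change of cre over wt epithelial libraries for the 8 tested genes, as a point with its SE (red where the adjusted p is under 0.05), with the value without wt 6 as a blue diamond and without each other library as grey ticks. Reg3g stays between 0.64 and 0.92 throughout, while Saa1, Duox2 and Duoxa2 cross 0 only when wt 6 is left out.

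Levels per transcript length, in FPKM, spanned several orders of magnitude over the 8 epithelial libraries. Lypd8 was the most abundant, at 1252 ± 342 FPKM, followed by Pigr at 181 ± 24.6 FPKM (SD, n = 8 each, also below). Reg3b at 120 ± 28.7, Reg3g at 119 ± 40.4, Retnlb at 95.5 ± 29.6 and Saa1 at 92.7 ± 99.5 FPKM came next. The ranges of these 4 overlapped, and no test was made among them. The mean of Saa1 was raised by wt 6, at 328 FPKM, and its median was 61.2 FPKM. The oxidase pair was far lower, with Duoxa2 at 4.17 ± 1.27 FPKM and Duox2 at 1.41 ± 0.996 FPKM. Nos2 at 0.0911 ± 0.0939 FPKM was lower still, and Lcn2 was at 0 FPKM in 7 of the 8.

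Across the 8 epithelial libraries the 8 genes with enough counts were compared in pairs, which left out Nos2 and Lcn2. On log2 CPM, Lypd8 and Saa1 had the highest Pearson correlation of any pair, 0.86, followed by Duoxa2 with Saa1 at 0.84 and Duoxa2 with Lypd8 at 0.81. Reg3g and Reg3b had 0.67, and Duox2 and Duoxa2 0.65. Pigr ran the other way to most, with -0.67 against Duoxa2 and -0.54 against Reg3b. Wt 6 was the highest library for Lypd8, Saa1, Duoxa2 and Duox2, and so is an extreme point of every pair among them. All libraries share a genotype split, and the values are descriptions over 8 points.

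The genes of most similar pattern were searched among 11309 genes, again by Pearson correlation over the 8 epithelial libraries. For Reg3g they were Rab11b-ps2 (0.98) and the transporter gene Slc22a18 (0.98), and for Reg3b Phldb1 (0.97) and Dmtn (0.95). For Lypd8 they were the junction gene F11r (0.97) and Phgr1 (0.97), and for Saa1 the chloride exchanger gene Slc26a3 (0.98) and Cyp2d12 (0.98). Duoxa2 ran with Sprr2b (0.98) and Tmem134 (0.98), and Duox2 with Prr14 (0.99) and Tnrc6c (0.97). Retnlb ran with Bmp7 (0.97) and Inafm2 (0.96), and Pigr with Eif3s6-ps4 (0.94) and Atoh8 (0.93). With this many genes searched over 8 points, high values are found for any gene.

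Set against the macrophage libraries, 8 of the 10 genes were higher in epithelial cells and Lcn2 was higher in macrophages. The call needed an edgeR adjusted p under 0.05 and a 2-fold difference, which 22.5% of 16375 genes passed as higher in epithelial cells and 29.7% as higher in macrophages. The largest difference was that of Retnlb, at 8.48 on the log2 scale (SE 0.44, edgeR adjusted p = 3.57e-11). Reg3g followed at 7.99 (SE 0.29), Reg3b at 7.08 (SE 0.26), Pigr at 6.55 (SE 0.27) and Duox2 at 6.15 (SE 0.66). Saa1 at 5.75 (SE 0.86), Lypd8 at 4.82 (SE 0.65) and Duoxa2 at 4.6 (SE 0.61) were the smallest of the 8. Lcn2 summed to 62 counts in the 6 macrophage libraries and 1 count in the 8 epithelial libraries, a ratio of macrophages to epithelium of 111 after scaling (95% interval 19.2 to 4453, counting error only). Nos2 could not be tested, with 36 counts in epithelial and 7 in macrophage libraries.

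The epithelial defence genes were also counted at low levels in macrophage libraries. Lypd8 stood at 80.2, 21.1 and 60.0 CPM in cre macrophage libraries 8, 9 and 10 and at 90.1, 7.38 and 215 CPM in wt macrophage libraries 2, 4 and 6. As a percentage of the epithelial mean, Lypd8 ranged from 0.349% in wt 4 to 10.2% in wt 6. The 10 epithelium markers ranged over the same 6 libraries from 0.492% in wt 4 to 3.32% in wt 6, and the lowest and highest library were thus the same. Reg3b stood between 0.202% and 1.11%, Reg3g between 0 and 0.856%, Retnlb between 0 and 0.674% and Pigr between 0.435% and 1.81%. Saa1 reached 5.55%, also in wt 6, and Duoxa2 reached 24.5% in wt 2 on 18 counts. How much of this RNA came from epithelial cells in the sort was not tested.

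**Figure D3:**
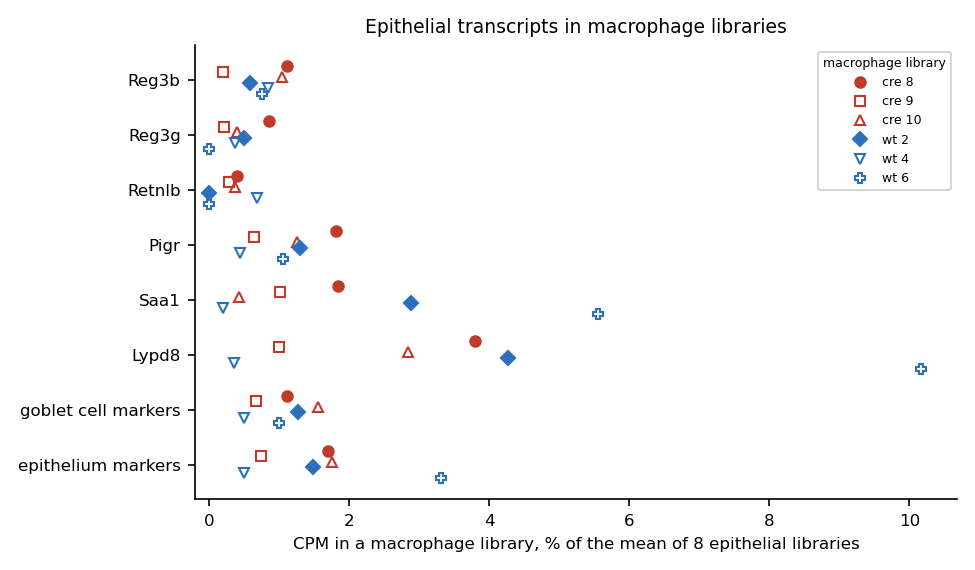
Level of 6 defence genes and of the summed goblet cell and epithelium markers in each macrophage library, as a percentage of the mean CPM of the 8 epithelial libraries (red, cre; blue, wt; 1 symbol per library). Most values lie under 2%, and wt 6 stands highest for Lypd8 (10.2%), Saa1 (5.55%) and the epithelium markers (3.32%).

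Between genotypes in macrophages, 3 of the 10 genes had enough counts. None passed in edgeR, where 0.944% of 14087 genes passed, 0 had an unadjusted p under 0.05, and DESeq2 and limma called 0. Lcn2 had 5, 21 and 13 counts in cre macrophage libraries 8, 9 and 10 and 9, 2 and 12 counts in wt libraries 2, 4 and 6 (log2 change 0.91, SE 0.72, edgeR adjusted p = 0.681). The groups overlapped. Lypd8 had a log2 change of -0.94 (SE 1.23, adjusted p = 0.83), which turned to 0.18 without wt 6, and Pigr one of 0.41 (SE 0.47, adjusted p = 0.790). The genotype effects of the epithelium and the macrophages were also compared directly, and none of 9 genes tested passed in edgeR, where 0.702% of all genes did. Of the 9, 0 had an unadjusted p under 0.05, and DESeq2 and limma also called 0. Several had few counts in 1 cell type. Lcn2 had 1 count in the 8 epithelial libraries. Duox2 had 6, Retnlb 10 and Duoxa2 21 counts in the 6 macrophage libraries. The SEs of these genes lay between 1.38 and 1.93, so the comparison could hardly show a difference for them. For Reg3g the difference of effects was 0.15 on the log2 scale (SE 0.95, edgeR adjusted p = 0.983), resting on 19 counts in macrophages. The rise of Reg3g is thus not shown to differ between the cell types.

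In 6 lists of related genes, 10 of 98 genes tested in cre against wt epithelium passed. That is 10.2%, close to the 9.17% over all genes, where 5.64% passed as higher and 3.53% as lower in cre. Of 31 listed antimicrobial lectins, peptides and mucus proteins, 21 were tested, 1 rose (5.64% of all genes did) and 4 fell (3.53% of all genes did), with a median log2 change of -0.10. Dmbt1, a bacteria-binding mucin-like protein, fell to 3889 ± 119 CPM in cre, against 5448 ± 801 CPM in wt (SD, n = 4 each), a log2 change of -0.50 (SE 0.10, edgeR adjusted p = 0.0120). The gasdermin genes Gsdmc2 (log2 change -0.75, SE 0.18) and Gsdmc4 (-0.63, SE 0.18) fell, and as near copies they may share reads. Ly6a, a surface protein also called Sca-1, rose by 0.54 (SE 0.13). Lyz2, the lysozyme gene that holds Cre, had a log2 change of -1.40 (SE 0.21, adjusted p = 0.00648) and fell to 13.0 ± 2.96 CPM in cre, against 33.9 ± 9.16 CPM in wt epithelium (SD, n = 4 each). Lyz2 stood at 7038 ± 218 CPM in cre and 8255 ± 826 CPM in wt macrophages (SD, n = 3 each). In the epithelium 5 of 16 tested macrophage markers fell, Lyz2 among them, against 3.53% of all genes. The part of macrophage RNA in its fall was not tested.

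Of 18 listed genes of oxidases and radical chemistry, 13 were tested in edgeR, 2 rose, against 5.64% of all genes, and 0 fell (0 with an unadjusted p under 0.05, and 0 in DESeq2 and limma), with a median log2 change of 0.17. Gpx2, the glutathione peroxidase of the gut epithelium, rose to 2087 ± 338 CPM in cre, against 1453 ± 154 CPM in wt (SD, n = 4 each), a log2 change of 0.51 (SE 0.12, edgeR adjusted p = 0.0178). Asl, which makes arginine, the substrate of NOS2, rose by 0.51 (SE 0.13). Noxo1, the organizer of the colonic oxidase NOX1, stood at 7.87 ± 1.35 CPM in cre and 5.02 ± 0.923 CPM in wt and did not pass (log2 change 0.63, adjusted p = 0.0835). Of 15 acute phase and metal-withholding genes, 9 were tested, 1 rose and 1 fell, with a median log2 change of 0.23. Ftl1, the ferritin light chain, rose by 0.56 (SE 0.10), and Slc40a1, the iron exporter ferroportin, fell by 0.82 (SE 0.23). Tfrc, the transferrin receptor, had a log2 change of -0.47 and did not pass (adjusted p = 0.0965). Pseudogene copies of Ftl1 may share its reads, and Ftl1 and Slc40a1 were both higher in macrophages than in epithelium.

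None of 7 tested genes of antibody transport and B cell help passed, nor of 21 tested genes of IL-22, IL-17, IL-13 and interferon gamma receptors and signalling, both in edgeR. In edgeR 0 of the 7 and 4 of the 21 had an unadjusted p under 0.05, as did 3696 of all 13553 genes. DESeq2 and limma each called 0 of the antibody genes and 1 of the signalling genes. The median log2 change was -0.20 for the antibody list and -0.25 for the signalling list. The epithelial cytokine gene Il18 had the largest positive value named in the signalling list, at 0.44 (SE 0.15, adjusted p = 0.0737), with Il1r1 at -0.70 and Ifngr2 at -0.48. Among antibody genes Tnfsf13 had 0.30, Tnfsf13b -0.43 and Fcgrt 0.18, the last falling to -0.00195 after removal of the GC trend. Of 27 tested microbial sensors and adaptors, 1 rose and 0 fell in edgeR, with a median log2 change of -0.12. At an unadjusted p under 0.05 there were 9 of the 27, of which 5 were lower in cre, against 3696 of all 13553 genes in either direction. DESeq2 called 2 of the list higher and 2 lower, where 13.9% of all genes passed. Nfkb2, an NF-kappaB subunit, rose to 34.2 ± 2.65 CPM in cre, against 23.1 ± 0.509 CPM in wt (SD, n = 4 each), a log2 change of 0.56 (SE 0.12, edgeR adjusted p = 0.0144). The inflammasome sensor genes Nlrp6 (log2 change -0.39, adjusted p = 0.0513) and Naip2 (-0.66, adjusted p = 0.0688) did not pass. Of the 10 genes of these lists that passed, 2 still passed without cre 9, 3 without cre 5, 6 without wt 2, 7 without cre 10, 7 without wt 7 and 9 without cre 8, wt 4 or wt 6. With the ribosomal RNA share in the model 0 passed in edgeR (7 had an unadjusted p under 0.05), and in males alone 1 passed (10 had an unadjusted p under 0.05). In the fit of all 14 libraries 1 of the 10 passed, with limma on log2(FPKM + 1) 8, and after removal of the GC trend 6.

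**Figure D4:**
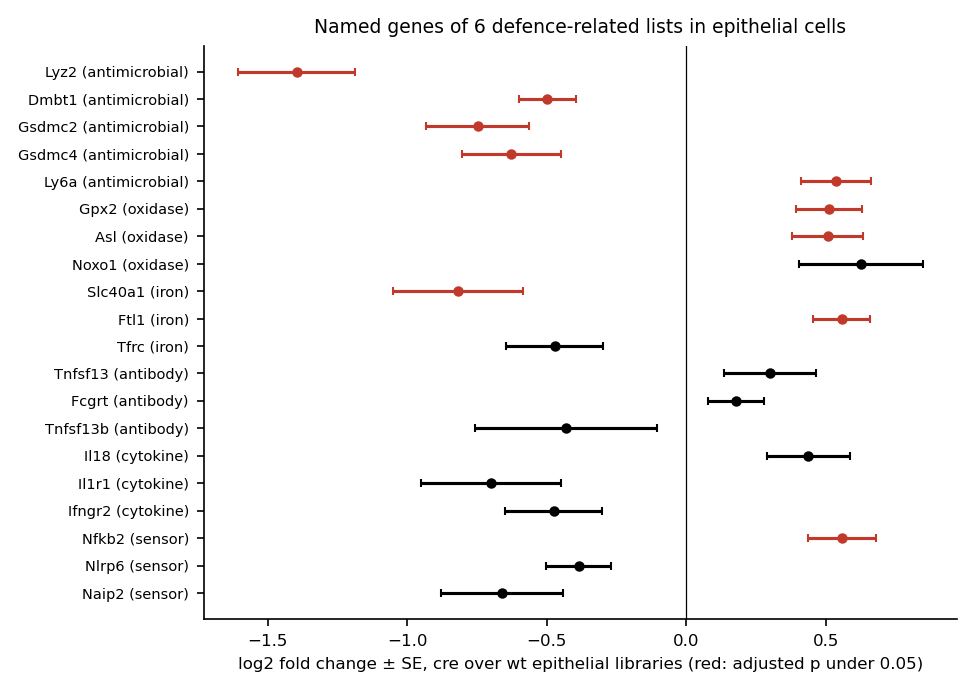
Log2 fold change with SE of cre over wt epithelial libraries for the 20 named genes of 6 defence-related lists, given in brackets after each gene, with red for an adjusted p under 0.05. Lyz2 has the largest fall (-1.40), and the 5 genes that rose, Ly6a, Gpx2, Asl, Ftl1 and Nfkb2, lie between 0.51 and 0.56.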

How the data were processed

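Per the labels, Smart-seq2 cDNA was made into Nextera XT libraries for single-end sequencing. GRCm38, DESeq2 1.24.0, Picard 2.19.2 and STAR 2.5.2b appear in the submitters' processing notes. How reads were counted, on which annotation and strand, is not given in the sources used here. The authors deposited raw counts per gene, and FPKM values that equal the count over 1 gene value and 1 library factor. Members and lists were chosen with earlier results of these data known.

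The test was edgeR 4.0.16 under R 4.3.3 (TMM size factors, a filterByExpr minimum count of 10, robust quasi-likelihood F test, Benjamini-Hochberg adjustment over all tested genes, threshold 0.05). Genotype was fitted within each cell type. Cell type and the difference of effects used all 14 libraries. SE is the log2 change over the square root of F. CPM are counts over the TMM library size of all 14 libraries, so mean CPM and fitted folds can differ. Single values were tested with exact permutation (scipy 1.17.1). Named genes were all 10 members, every list gene past the epithelial genotype test (up to 3 by smallest p where fewer than 3 passed), the 2 most correlated genes per member, abundant markers and paralogs. One symbol, Il36g, had no row. Groups and mouse numbers came from the labels, and no 2 libraries of a group were copies (smallest chi-square per degree of freedom 6.20). Same-numbered epithelial and macrophage libraries had correlations of deviations from -0.0316 to 0.0861, and the main fits did not pair them. Such correlations cannot show whether same-numbered libraries came from the same animal. Alternatives were RLE size factors, DESeq2 1.42.0, filters, limma 3.58.1 on FPKM, sex, males only, 1 joint fit, a mouse-number block, ribosomal and GC corrections (GENCODE M21) and leaving out each library. The fits were tested on simulated data. Floors and intervals cover counting error only: PCR duplicates cannot be separated here.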

Additional observations from a re-analysis of the deposited data

Results flagged for a closer look

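In the groups of 4 epithelial libraries, 8 of 46 tested groups of values had 1 library far from the other 3, by a gap rule that chance meets in about 1 in 20 groups. Wt 6 gave 4 of them: Lypd8 at 3199 CPM (others 1474 to 1722), Duox2 at 29.9 CPM (others 6.56 to 10.2), Saa1 at 263 CPM (others 18.3 to 59.8), and the summed colonocyte markers at 5875 CPM (others 3353 to 3531). Cre 8 gave a pair, Duox2 at 15.04 CPM (others 7.02 to 7.11) and ribosomal RNA at 26.7% of counts (others 7.37% to 10.6%). Retnlb stood at 36.4 CPM in wt 7 (others 98.9 to 111), and Duoxa2 at 6.58 CPM in cre 10 (others 8.77 to 9.16).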

How the results depend on the processing

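The rise of Reg3g in cre epithelium kept its direction in all alternatives run and lost its call in 5, given beside it. Genes of all 13553 that passed in epithelium numbered 1243. They were 1884 by DESeq2, 627 after the GC and length trend, 19 in the fit of all 14 libraries, 5 in males alone and 178 to 1947 when 1 library was left out. With the ribosomal RNA share in the model, 0 passed in edgeR (1665 at an unadjusted p under 0.05). Of the 10 members, 0 passed in males alone, in the fit of all 14 libraries or with the ribosomal share, and 0 to 2 when 1 library was left out. In macrophages 133 genes passed, against 497 by DESeq2, 299 without a filter, 374 in the fit of all 14, 32 in males alone, 2 with sex in the model and 29 to 87 when 1 library was left out. For the difference of effects 115 passed, against 511 by DESeq2, 195 without a filter, 297 with log2(FPKM + 1) and 54 to 229 when 1 library was left out. For cell type 8543 passed, against 4994 with log2(FPKM + 1). The causes were not tested.

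With a block on mouse number (replicate block), the difference of effects gave 8 genes and cell type 8411, with 0 and 9 members called. The main fits did not use this block, and the weak correlations of same-numbered libraries cannot show that they came from different animals. Within 1 cell type no block can be fitted, since each number occurs in 1 genotype.

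Signs turned in the epithelium as follows. Retnlb was -0.026 with a minimum count of 50, -0.31 with the ribosomal share, and -0.24 to 0.17 when 1 library was left out. With the ribosomal share Duox2 was 0.42, Duoxa2 0.17 and Saa1 0.14. When 1 library was left out Duox2 ran from -0.94 to 0.11, Duoxa2 from -0.29 to 0.17, Saa1 from -1.10 to 0.66 and Pigr from -0.040 to 0.15. Lypd8 was -0.20 in males alone and Fcgrt -0.00195 after the GC trend. In macrophages Lypd8 ran from -1.49 to 0.18. The difference of effects for Reg3g was -0.072 with log2(FPKM + 0.1). When 1 library was left out, that difference ran from -0.55 to 0.80 for Reg3g and from -0.31 to 0.60 for Reg3b. It ran from -4.09 to 2.78 for Duox2, -3.60 to 3.10 for Duoxa2, -0.096 to 2.12 for Saa1 and -0.63 to 0.10 for Pigr. None of these values passed the test. At this depth a genotype difference in Nos2 (18 counts in each genotype) and Lcn2 (1 count) could not be detected in epithelium.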
